A study of Bos taurus with 6 samples.

Results

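ISG15, MX1, MX2 and RSAD2, 4 genes that respond to interferon, were measured by RNA sequencing in fibrocytes of cattle (Bos taurus) kept in either of 2 media. They were taken by Ensembl gene ID, as ENSBTAG00000014707 (ISG15), ENSBTAG00000030913 (MX1), ENSBTAG00000008471 (MX2) and ENSBTAG00000016061 (RSAD2), from tables of 36075 genes, of which 14211 were tested. All 4 passed the filter on low counts. The count tables hold no gene symbols, so the pairing of ID and symbol was given with the choice of the 4 genes and is not recorded in the files. The cells were labelled fibrocytes, blood-borne cells with traits of leukocytes and of fibroblasts, and were grown from nucleated blood cells on 0.1% gelatin. The fibroblast medium (FbM) was high-glucose DMEM with non-essential amino acids, the antibiotics penicillin and streptomycin, and fetal bovine serum at 20%. The medium for fibrocytes (FcM) shared this base and added 10 nM dexamethasone (a glucocorticoid), 0.1 mM L-ascorbic acid-2-phosphate, 10 ng/mL PDGF-BB, 10 ng/mL EGF, 0.5 μM A83-01 (an inhibitor of TGF-β type I receptors) and 1.5 μM CHIR99021 (a GSK-3 inhibitor). Each medium had 3 libraries, titled FbM_1962, FbM_1944 and FbM_1951 and FcM_1962, FcM_1944 and FcM_1951, so that the titles form 3 pairs with the same number. What a number stands for is not stated, nor whether the cultures came from separate animals, so p-values measure the spread between these libraries. Per its design text, the study sought culture conditions suited to these cells in their inflammatory response and proliferation.

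Type I interferons are secreted proteins that bind a receptor on the cell surface. The signal switches on genes that carry an interferon-stimulated response element, the 4 genes here among the best known of them. ISG15 is a ubiquitin-like protein that is joined to other proteins during the antiviral response. MX1 and MX2 are dynamin-like GTPases that block virus replication, and RSAD2 (viperin) is a radical SAM enzyme that makes a nucleotide analogue which stops viral RNA synthesis. In cattle these transcripts also rise in blood leukocytes in early pregnancy, when the conceptus releases interferon tau.

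The libraries held 15925280 to 19149516 reads on genes. FcM_1962 stood apart from the other FcM libraries. Its Spearman correlation across genes was 0.806 to 0.879 with them and 0.915 to 0.931 with the FbM libraries, so results are given with and without it. Whether this culture was handled like the other FcM cultures is not stated, and its label was taken as given, so the FcM means and the comparison of FcM_1962 with FbM_1962 rest on that label. The labelled cell type was not checked against its markers, and the other genes of the interferon pathway were not analysed here, because no table used here pairs Ensembl IDs with symbols. In bulk RNA, fewer cells that express a gene and less of its RNA per cell cannot be told apart.

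All 4 genes were lowest in FcM_1962, as were 13.4% of all genes tested. ISG15, MX1 and RSAD2, 3 of the 4, were higher in FcM_1944 and FcM_1951 than in every FbM library, as were 30.3% of genes tested. FcM_1962 lay below every FbM library for 4 of 4 genes, against 31.4% of all genes tested. The full pattern, with FcM_1944 and FcM_1951 above every FbM library and FcM_1962 below every FbM library, was seen for 3 of 4 genes and for 4.71% of the genes tested. This pattern was described after the values were seen. ISG15, MX1 and RSAD2 also correlated with each other over these libraries (r from 0.865 to 0.995), so they are not separate observations. The media overlapped for all 4 genes, while 32.8% of tested genes had no overlap between the media.

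RSAD2 varied most. In CPM, reads scaled to library size with TMM factors, it stood at 23.7, 17.9 and 17.7 in FbM_1962, FbM_1944 and FbM_1951. In FcM it stood at 2.04, 98.9 and 65.4 CPM in FcM_1962, FcM_1944 and FcM_1951. The FbM libraries lay close together, while the FcM libraries lay on both sides of them. The FbM mean was 19.8 ± 3.45 CPM and the FcM mean 55.5 ± 49.2 CPM (SD, n = 3 per medium). The highest library was 48.6-fold above the lowest, a span larger than that of 94.9% of tested genes. Only 33 reads fell on RSAD2 in FcM_1962 (95% exact Poisson interval 22.7 to 46.3), against 1604 and 1170 in FcM_1944 and FcM_1951. Such intervals cover counting error only.

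ISG15 stood at 52.5, 28.3 and 91.9 CPM in FbM_1962, FbM_1944 and FbM_1951. It stood at 19.2, 157 and 234 CPM in FcM_1962, FcM_1944 and FcM_1951. Here the FbM libraries already differed 3.24-fold among themselves, and FbM_1951 and FcM_1951 were the highest of their media. The FbM mean was 57.6 ± 32.1 CPM and the FcM mean 137 ± 109 CPM (SD, n = 3 per medium).

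MX1 was even in FbM, at 335, 343 and 331 CPM in FbM_1962, FbM_1944 and FbM_1951. Only 0.704% of tested genes had a smaller span over the FbM libraries. In FcM it stood at 148, 654 and 582 CPM in FcM_1962, FcM_1944 and FcM_1951. The FbM mean was 336 ± 5.90 CPM and the FcM mean 461 ± 274 CPM (SD, n = 3 per medium). This evenness depended on how overlapping reads were counted, as described with the strand columns.

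MX2 was the only one of the 4 with a lower mean in FcM. It stood at 640, 514 and 313 CPM in FbM_1962, FbM_1944 and FbM_1951. In FcM_1962, FcM_1944 and FcM_1951 it stood at 57.4, 340 and 324 CPM. FcM_1944 and FcM_1951 thus lay within the range of FbM, just above FbM_1951, and FcM_1962 far below it. The FbM mean was 489 ± 165 CPM and the FcM mean 240 ± 159 CPM (SD, n = 3 per medium).

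**Figure D1:**
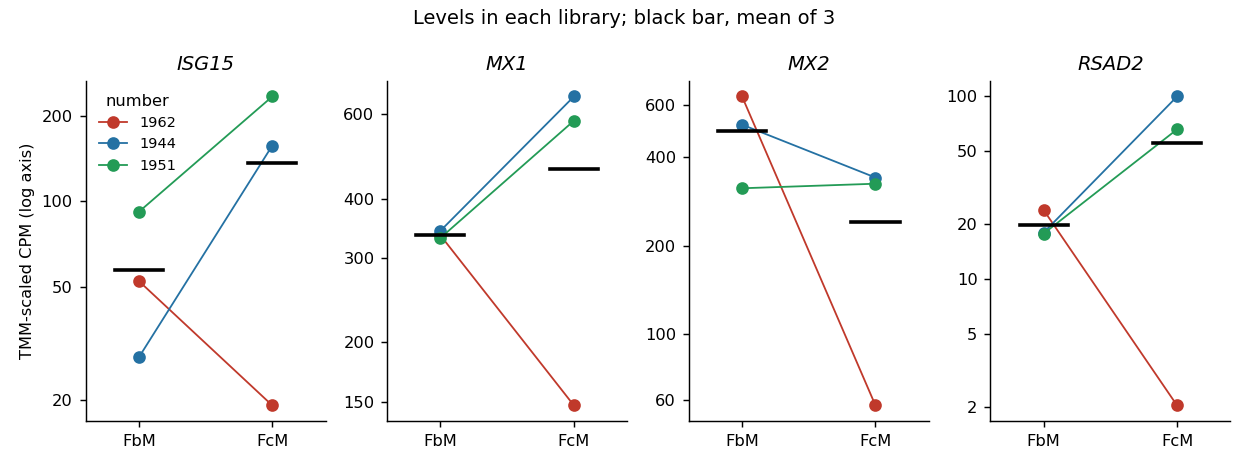
Levels of ISG15, MX1, MX2 and RSAD2 in TMM-scaled CPM (log axis, each panel with its own scale) in the 3 FbM and 3 FcM libraries. Lines join libraries of the same number and black bars are means of 3. FcM_1962 is the lowest point of each panel.

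Set side by side by pair, the change between the media went in opposite directions. With 1 library per medium in a pair, these ratios compare libraries, with 95% exact binomial intervals for counting error. RSAD2 was 11.7-fold lower in FcM_1962 than in FbM_1962 (interval 8.15 to 17.2), 5.54-fold higher in FcM_1944 than in FbM_1944 (4.88 to 6.30) and 3.71-fold higher in FcM_1951 than in FbM_1951 (3.28 to 4.19). ISG15 was 2.73-fold lower in FcM_1962 (2.39 to 3.13), 5.55-fold higher in FcM_1944 (5.02 to 6.14) and 2.54-fold higher in FcM_1951 (2.40 to 2.69), each against the FbM library of its pair. MX1 was 2.27-fold lower in FcM_1962 (2.16 to 2.38), 1.91-fold higher in FcM_1944 (1.85 to 1.97) and 1.76-fold higher in FcM_1951 (1.70 to 1.81).

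MX2 departed from the other 3 genes. It was 11.2-fold lower in FcM_1962 than in FbM_1962 (10.4 to 11.9) and also lower in FcM_1944 than in FbM_1944, by 1.51-fold (1.46 to 1.56). The ratio of FcM_1951 to FbM_1951 was 1.04 (0.999 to 1.07), an interval that includes 1. From FbM_1962 to FcM_1962, 1.83% of tested genes had a lower change than MX2, 1.85% than RSAD2, 8.21% than ISG15 and 10.6% than MX1. From FbM_1944 to FcM_1944 these shares were 92.2% for RSAD2, 92.2% for ISG15, 76.5% for MX1 and 32.2% for MX2. From FbM_1951 to FcM_1951 they were 91.0% for RSAD2, 87.5% for ISG15, 79.6% for MX1 and 52.1% for MX2. The median change of all tested genes was between 0 and 0.01 on the log2 scale in each pair.

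**Figure D2:**
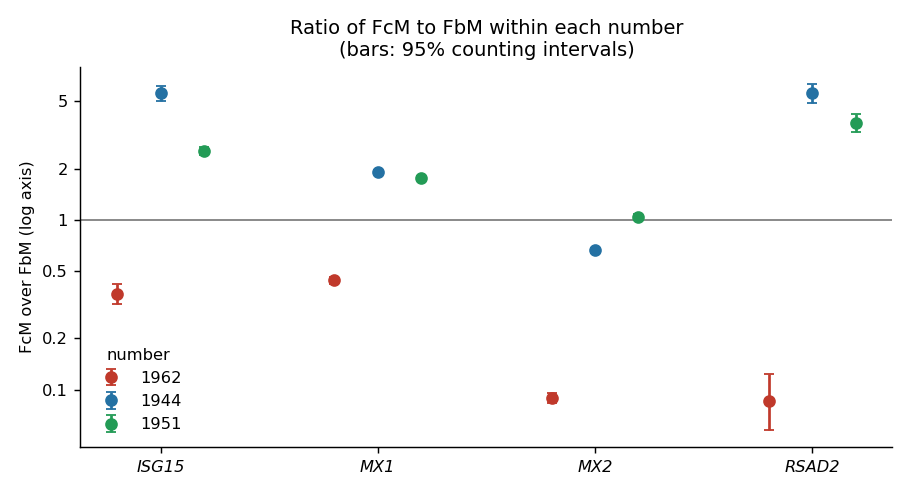
Ratio of the FcM library to the FbM library of the same number (log axis) for each gene, with 95% counting intervals. The ratios of FcM_1962 to FbM_1962 lie below 1 for 4 of 4 genes, and those of the other 2 pairs lie above 1 for ISG15, MX1 and RSAD2.

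With all 6 libraries, none of the 4 genes differed between the media beyond the spread of the libraries. The edgeR quasi-likelihood test passed 0 of the 4 at a false discovery rate of 0.05, against 3.48% of tested genes, and 0 of the 4 had an unadjusted p under 0.05, against 27.7% of tested genes. RSAD2 had a log2 fold change of 1.49 (SE 1.05, 95% interval -1.02 to 3.99, edgeR adjusted p = 0.393). ISG15 had 1.25 (SE 0.84, interval -0.75 to 3.25, edgeR adjusted p = 0.373) and MX1 had 0.46 (SE 0.52, interval -0.78 to 1.70, edgeR adjusted p = 0.597). These are estimates above 0 with intervals that reach below it. MX2 had -1.02 (SE 0.65, interval -2.57 to 0.52, edgeR adjusted p = 0.346). As a ratio of FcM to FbM, the interval of RSAD2 ran from 0.494 to 15.9, so a p above the threshold does not show that the media gave equal levels.

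The DESeq2 Wald test likewise passed 0 of the 4 genes (19.8% of tested genes passed), and so did edgeR with the number as a block (3.0% of genes passed) and limma-voom (2.82%). The estimates moved, however. RSAD2 had a log2 fold change of 0.78 with the block and 0.30 in limma-voom, MX1 had 0.21 and 0.19, and ISG15 had 0.88 and 0.78. MX2 had -1.25 and -1.35. Of the tools run on all 6 libraries, only limma-voom with library quality weights passed any of the 4. It passed 1, ISG15, with a log2 fold change of 1.97 (limma adjusted p = 0.0433), in a fit that passed 32.7% of genes. The weights were 0.282 for FcM_1962, 0.417 for FcM_1944 and 2.98 for FcM_1951. The FcM side of this fit thus leaned on FcM_1951, the library with the highest ISG15.

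Without FcM_1962 the calls changed for 3 of the 4 genes. RSAD2 rose in FcM with a log2 fold change of 2.05 (SE 0.28, edgeR adjusted p = 0.00392), ISG15 with 1.75 (SE 0.47, edgeR adjusted p = 0.0322) and MX1 with 0.87 (SE 0.22, edgeR adjusted p = 0.0276). MX2 had -0.57 (SE 0.34, edgeR adjusted p = 0.255). Of all genes tested in these 5 libraries 28.6% passed, so 3 of 4 is to be read against a large background. The mean in FcM without FcM_1962 was 4.16 times the FbM mean for RSAD2, 3.39 times for ISG15, 1.84 times for MX1 and 0.679 times for MX2. The 2 FcM libraries left lay above every FbM library for RSAD2, ISG15 and MX1 and overlapped with FbM for MX2. FcM_1962 was singled out after its values had been seen, so these calls describe the other 5 libraries.

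With the number as a block and FcM_1962 left out, RSAD2 (log2 fold change 2.17, edgeR adjusted p = 0.000991) and ISG15 (1.89, edgeR adjusted p = 0.00458) passed. MX1 did not (0.86, edgeR adjusted p = 0.0859), in a fit that passed 31.8% of genes. The same 2 genes passed with the block when FbM_1962 and FcM_1962 were both left out, where 31.6% of genes passed. That fit is nearly the same as the one before, since in the block FbM_1962 has no partner once FcM_1962 is left out. It therefore adds no separate support. The DESeq2 Wald test without FcM_1962 passed RSAD2, ISG15 and MX1, with 36.6% of genes passing. MX2 passed in none of these fits.

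**Figure D3:**
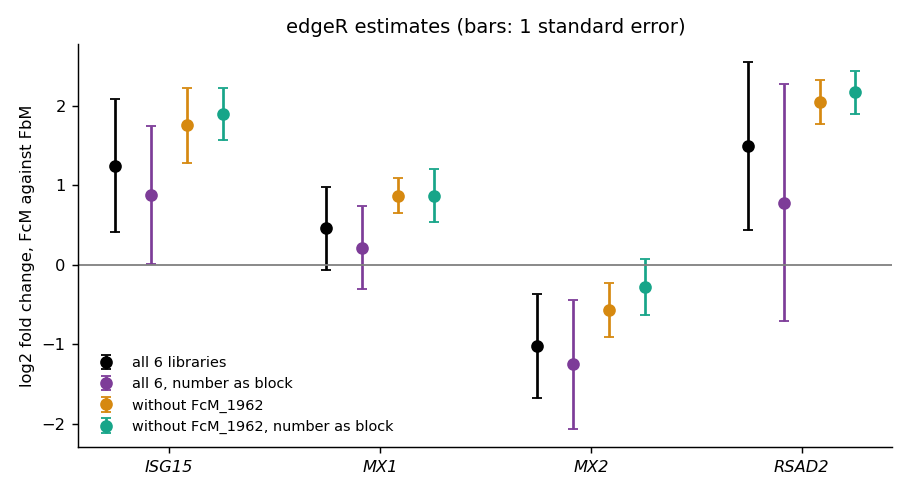
Log2 fold change of FcM against FbM from edgeR, with bars of 1 standard error, for all 6 libraries and without FcM_1962, each with and without the number as a block. Without FcM_1962 the bars are shorter and the estimates for RSAD2 and ISG15 lie further above 0, while MX2 stays below 0.

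Of the 6 ratios between the 4 genes within a library, 2 did not overlap between the media, MX1 over MX2 and ISG15 over MX2, and none passed a test. Each of these 2 has MX2 as its denominator. The share of ratios between other genes without overlap was not computed, and 32.8% of single tested genes had no overlap, so the separation may be common. The ratio of MX1 reads to MX2 reads within a library was 0.523, 0.667 and 1.06 in FbM_1962, FbM_1944 and FbM_1951. It was 2.57, 1.92 and 1.80 in FcM_1962, FcM_1944 and FcM_1951. Every FcM library thus had more MX1 relative to MX2 than every FbM library, FcM_1962 included, and its ratio was the highest. The mean log2 ratio was -0.48 ± 0.52 in FbM against 1.05 ± 0.28 for FcM (SD, n = 3 per medium), a 2.89-fold difference. In an exact permutation test (two-sided) that ignores the numbers p was 0.1, which is the minimum for groups of 3 and 3, and 0.3 after Benjamini-Hochberg adjustment over the 6 ratios compared. Within the 3 same-numbered pairs the exact two-sided permutation p was 0.25, the smallest that 3 pairs allow, so neither form could reach 0.05.

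The ratio of ISG15 to MX2 was 0.082, 0.0551 and 0.294 in FbM_1962, FbM_1944 and FbM_1951, and 0.334, 0.462 and 0.721 in FcM_1962, FcM_1944 and FcM_1951. The FcM libraries lay above the FbM libraries, though FcM_1962 was close to FbM_1951 (exact two-sided permutation p = 0.1, adjusted 0.3, and 0.25 within pairs). The other 4 ratios overlapped between the media (exact permutation p from 0.3 to 1). MX1 and RSAD2, for example, had a mean log2 ratio that was 4.10 ± 0.25 in FbM against 4.02 ± 1.88 for FcM (SD, n = 3 per medium, exact permutation p = 1). Such ratios follow change across libraries and do not compare the amounts of 2 transcripts, since gene lengths do not enter them.

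**Figure D4:**
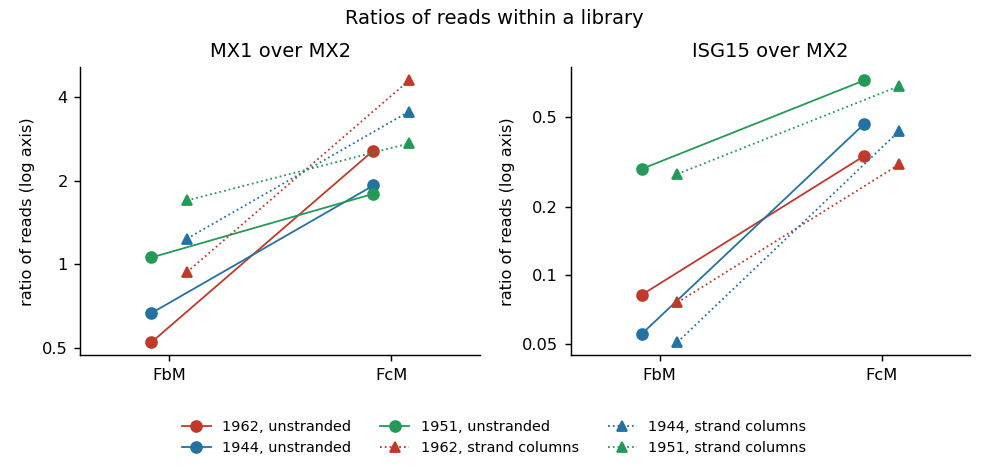
Ratio of MX1 to MX2 reads and of ISG15 to MX2 reads within each library (log axis), from unstranded counts (circles) and from the sum of the strand columns (triangles). Lines join libraries of the same number. With either count the FcM libraries lie above the FbM libraries.

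Across the 6 libraries MX1 and RSAD2 moved together. Their log2 CPM had Pearson r = 0.995 and Spearman rho = 0.943 over 6 libraries that share numbers and media. Each was the other's second closest of 14210 genes. The r was 0.973 without FcM_1962 and FcM_1944, the 2 libraries farthest from the median. ISG15 followed less closely, with r = 0.876 to MX1 and 0.865 to RSAD2 (rho 0.714 and 0.771). Without FcM_1962 and FcM_1951, the libraries farthest from the median of ISG15, r fell to 0.729 and 0.746. MX2 had r = 0.713 to RSAD2 and 0.667 to MX1. These turned to -0.44 and -0.42 without FbM_1962 and FcM_1962, the libraries farthest from the median of MX2, so the positive values rest on those libraries. With ISG15, MX2 had r = 0.394 and rho = 0.0857, and r was -0.87 without FbM_1962 and FcM_1962. All are descriptions of 6 libraries, without a test.

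By the rule of the highest r with each member, ENSBTAG00000005092 was the gene most like MX1 (r = 0.996) and also the gene most like RSAD2 (r = 0.996). It stood at 10.5, 9.40 and 8.57 CPM in FbM_1962, FbM_1944 and FbM_1951 and at 0.370, 130 and 51.9 CPM in FcM_1962, FcM_1944 and FcM_1951. The value in FcM_1962 rests on few reads, as 3 reads there equal 0.185 CPM. Like RSAD2, ENSBTAG00000005092 was even in FbM and spread widely in FcM, with FcM_1962 lowest (edgeR adjusted p = 0.262 with all 6 libraries). ENSBTAG00000011416 was closest to ISG15 (r = 0.991), with an FbM mean of 4.84 ± 1.21 CPM and an FcM mean of 7.70 ± 4.07 CPM (SD, n = 3 per medium, edgeR adjusted p = 0.433). ENSBTAG00000008981 was closest to MX2 (r = 0.994), with an FbM mean of 8.70 ± 0.864 CPM and an FcM mean of 6.86 ± 1.93 CPM (SD, n = 3 per medium, edgeR adjusted p = 0.549). The names of these 3 genes are not given in the tables used here. An r above 0.95 was reached by 93 other genes for MX1 (0.655% of those compared), 82 for RSAD2 (0.577%), 53 for ISG15 (0.373%) and 25 for MX2 (0.176%).

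The unstranded counts leave out reads that fall where MX1 overlaps another gene. In STAR's layout the count tables give reads without regard to strand and reads for each strand, and a read that falls on overlapping genes of opposite strands is ambiguous in the first but assigned in the others. For ISG15 and RSAD2 the strand columns summed to the unstranded count in every library. For MX1 they summed to 1.83 times the unstranded count over the 6 libraries, and 94.3% of tested genes had a lower ratio. For MX2 the sum was 1.07 times. The median gene had a ratio of 1.

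A single gene matched these extra reads. The strand columns of MX1 held 4649, 5655 and 4454 more reads than the unstranded count in FbM_1962, FbM_1944 and FbM_1951, and 2258, 10332 and 6326 more in FcM_1962, FcM_1944 and FcM_1951. Those of MX2 held 80 to 771 more. For ENSBTAG00000069934, found by a search over 36071 other genes after these values were seen, the surplus differed from that of MX1 and MX2 added together by 0 to 6 reads in each of the 6 libraries. The next gene in that search differed by up to 3340 reads. The IDs taken as MX1 and MX2 thus share reads with the same overlapping gene, and in the RefSeq gene table (assembly ARS-UCD2.0) MX2 and MX1 are listed next to each other. With no strand in the library, these reads cannot be divided between MX1 and the overlapping gene. Reads that map to several places are also left out of the counts, so reads common to the related genes MX1 and MX2 would not be counted. On its own reads ENSBTAG00000069934 had an FbM mean of 42.4 ± 16.3 CPM and an FcM mean of 44.4 ± 35.5 CPM (SD, n = 3 per medium), and at 9.50 CPM in FcM_1962, its lowest library.

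Relative to the unstranded MX1 count, the surplus of the strand columns was smallest in FbM_1951 and FcM_1951. The strand columns summed to 1.69 times the unstranded MX1 count in FbM_1951 and 1.61 times in FcM_1951, against 1.94 to 2.02 times in the other 4 libraries. For MX2 this pair was also the lowest, with 1.05 and 1.06 in FbM_1951 and FcM_1951 and 1.07 to 1.09 in the others. With the strand columns summed, MX1 stood at 649, 692 and 560 CPM in FbM_1962, FbM_1944 and FbM_1951, and at 287, 1292 and 936 CPM in FcM_1962, FcM_1944 and FcM_1951. The coefficient of variation over the FbM libraries was then 10.7%, against 1.76% from unstranded counts. The direction of change was the same in each pair, at 2.26-fold lower in FcM_1962, 1.87-fold higher in FcM_1944 and 1.67-fold higher in FcM_1951. The ratio of MX1 to MX2 also kept its order by medium, with FbM libraries at 0.937 to 1.70 and FcM libraries at 2.73 to 4.60.

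**Figure D5:**
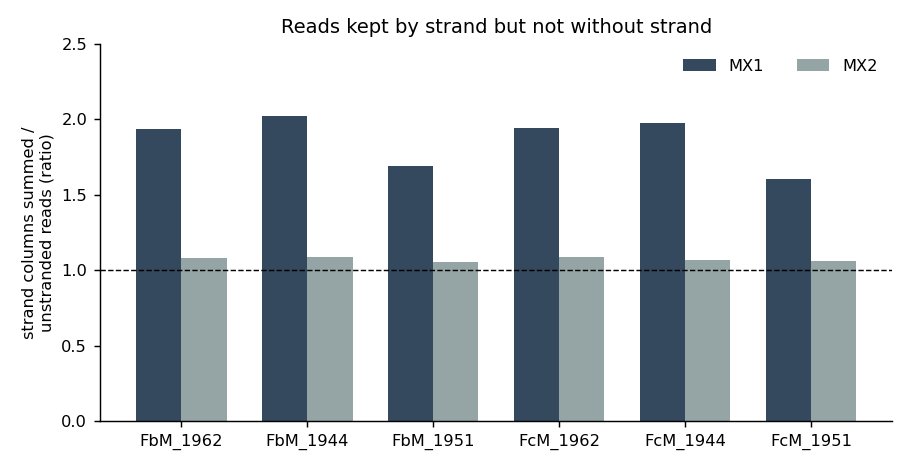
Sum of the 2 strand columns divided by the unstranded count for MX1 and MX2 in each library. The dashed line at 1 is the ratio of a gene that shares no reads with an overlapping gene of the opposite strand. The MX1 bars are lowest in FbM_1951 and FcM_1951.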

How the data were processed

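RNA was measured in 6 libraries made from poly-A selected RNA with random hexamers, per the labels' protocols. The authors deposited raw read counts per gene in the layout of STAR's gene table, with 4 summary lines that were left out of library sizes (no feature 12.9% to 21.7% and ambiguous 4.58% to 5.69% of aligned reads). STAR, edgeR and build ARS-UCD1.2 are named in the submitters' processing notes, without versions. The unstranded column was used, since 50.5% to 50.8% of stranded reads lay in the first strand column. Reads mapping to several places are listed as 0, so genes with near-identical copies are uncertain. From the counts, the media were compared with edgeR 4.0.16 under R 4.3.3, using TMM scaling and filterByExpr with the medium as group. The quasi-likelihood test was followed by Benjamini-Hochberg adjustment over all tested genes. The fits were first tried on simulated counts. These held no library that stood apart as FcM_1962 does, so they do not cover that case. Standard errors were derived from the fold change and the F statistic. DESeq2 1.42.0 and limma 3.58.1 were alternatives. Likeness used log2 CPM with a prior count of 2.

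The numbers in the titles were treated as a possible pairing. Deviations of same-numbered libraries from their medium's mean correlated across genes at 0.34 (FbM_1962 and FcM_1962), 0.40 (FbM_1944 and FcM_1944) and 0.25 (FbM_1951 and FcM_1951). Of the 6 libraries, 6 correlated best with their own number. These matches are not independent, since each pair is counted from both sides and the deviations within a medium sum to 0. The rule for named genes took the 4 members and the gene with the highest Pearson r to each. The planned pathway and marker lists were not used, because 0 of 37063 rows of the reference table hold an Ensembl ID. Members and lists were chosen with earlier results of these data known.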

Additional observations from a re-analysis of the deposited data

How the results depend on the processing

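Over 19 alternatives for each gene the sign of the fitted change did not turn. The alternatives reuse all or most of the same libraries, so they are not independent. Between pairs the sign did turn for RSAD2, ISG15 and MX1, which were lower in FcM_1962 but higher in FcM_1944 and FcM_1951. The fitted log2 fold change lay between 0.30 and 2.18 for RSAD2 and between 0.66 and 1.97 for ISG15. It lay between 0.12 and 0.88 for MX1 and between -1.36 and -0.27 for MX2. The adjusted p of these edgeR, DESeq2 and limma fits ranged from 1.59e-08 to 0.904 for RSAD2, 0.00244 to 0.71 for ISG15, 9.81e-05 to 0.922 for MX1 and 0.13 to 0.592 for MX2, which passed in none. Leaving out 1 library in turn gave 0.78 to 2.05 for RSAD2, 0.66 to 1.76 for ISG15 and 0.12 to 0.87 for MX1, and these 3 passed only without FcM_1962. The replicate block gave 0.78, 0.88, 0.21 and -1.25 for RSAD2, ISG15, MX1 and MX2, with no call (edgeR adjusted p from 0.352 to 0.8). With the block and without FbM_1962 and FcM_1962 RSAD2 had 2.18 (edgeR adjusted p = 0.00134) and ISG15 1.91 (0.00606). The DESeq2 test without FcM_1962, chosen after the data were examined like the block without FcM_1962 (2.17 and 1.89), the DESeq2 test with the block and the sum of strand columns, gave 2.05 for RSAD2, 1.75 for ISG15 and 0.87 for MX1. Voom quality weights gave 1.97 for ISG15.

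Over all genes, 495 passed in edgeR (157 higher, 338 lower in FcM), 427 with the replicate block, 2817 in DESeq2 (1529 higher, 1288 lower), 3085 in DESeq2 with the block (1479 higher, 1606 lower), 4648 with voom quality weights, 4766 with the block without FbM_1962 and FcM_1962, 4879 with the block without FcM_1962 and 5614 in DESeq2 without FcM_1962. Leaving out 1 library gave 2 to 4394 genes: 10, 5 and 2 without FbM_1962, FbM_1944 or FbM_1951, and 4394, 222 and 3 without FcM_1962, FcM_1944 or FcM_1951. The cause was not tested. Counts of 33 reads limit RSAD2 in FcM_1962.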
